A study of Mus musculus with 2 samples.

Results

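The HSP70 family members are heat shock proteins of about the same design that fold, refold, move and take apart other proteins. The 10 members described here, Hspa1a, Hspa1b, Hspa1l, Hspa2, Hspa4, Hspa4l, Hspa5, Hspa8, Hspa9 and Hspa14, were taken by gene symbol from a table of 53832 genes, and all 10 symbols were found. Polyadenylated RNA had been sequenced from small oocytes of mice, in 1 group with 2 libraries called replicates 1 and 2. Ovaries of female embryos had been kept in culture at an external pressure of 33.3 kPa, and cells positive for Stella-CFP, a fluorescent reporter of the germ cell gene Stella (Dppa3), had been sorted by flow cytometry. Since the reporter and the pressure are shared by both libraries, the levels are those of oocytes under pressure, and an effect of pressure cannot be read from them. Neither the strain nor the age of the embryos is given in the sources used here.

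An HSP70 protein binds a stretch of an unfolded protein while its own ATPase runs through a cycle. J-domain proteins (Dnaj genes) bring the substrate and speed up ATP hydrolysis, and nucleotide exchange factors release ADP so that the substrate can leave. One HSP70 serves the endoplasmic reticulum (ER), another the mitochondria, and several serve the cytosol and nucleus. Some of the cytosolic genes are transcribed at all times, and others only after heat or other stress that activates heat shock factor 1 (Hsf1). Growing and dormant oocytes store proteins and RNA for a long time, which makes chaperones of interest in these cells.

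The libraries held 5019462 and 5274338 expected counts, the reads that the authors' software assigned to genes, in fractions where a read matched several. Levels are given as TPM, counts divided by the length of a gene's merged exons and scaled to the library, and a gene counted as expressed where both libraries reached a TPM of 1. A count of 3 would give 0.598 and 0.569 CPM (counts divided by the library total, with no length) in replicates 1 and 2, which serves as the floor. All 10 germ cell markers were expressed, with a summed level of 7873 and 8435 TPM. Of 8 granulosa cell markers 0 were expressed, and they held 49 and 21 counts in sum (9.88 and 3.95 TPM), with Fshr listed at 0. The stroma list had 2 of 6 markers expressed (4.57 and 4.62 TPM in sum, Tcf21 at 0), the endothelial list 1 of 5 (4.66 and 3.67 TPM, Emcn at 0), and the immune and erythroid list 1 of 6 (4.44 and 4.31 TPM, 4 markers at 0). In bulk RNA, fewer cells of a type and less RNA per cell cannot be told apart. Where 2 values are given they are those of replicates 1 and 2, and other values are means ± SD with n = 2.

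Small oocytes held a high level of the constitutive cytosolic HSP70, clear levels of the mitochondrial and ER members and of Hspa4, and almost none of the stress-inducible pair. Of the 10 members, 7 were expressed, against 53.5% of all 21722 protein-coding genes. The median member stood at 34.1 TPM, and the median protein-coding gene at 2.57 TPM. Together the members summed to 1747 and 1670 TPM (1709 ± 54.2). The 7 expressed members made up 99.7% and 99.9% of that sum, and Hspa8 alone made up 54.3 ± 0.806% of it. The range among members ran from 928 TPM for Hspa8 to 0.386 TPM for Hspa1l.

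**Figure D1:**
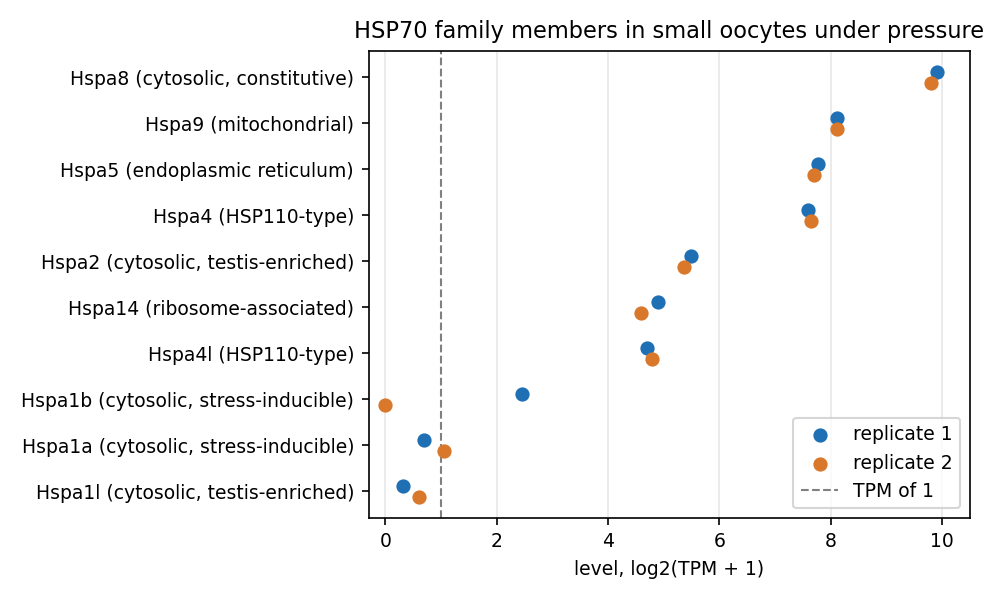
Levels of the 10 HSP70 members on a log2(TPM + 1) axis, one row per gene with its place of action, and one point per library (blue, replicate 1; orange, replicate 2). The dashed line marks a TPM of 1. Hspa8 stands at the top at 959 and 898 TPM, and Hspa1b, Hspa1a and Hspa1l at the bottom, where Hspa1b is the one member whose libraries lie far apart, at 4.50 and 0 TPM.

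Hspa8, also called Hsc70, is the constitutive HSP70 of the cytosol. It folds new proteins, strips clathrin from vesicles and carries substrates to the lysosome. The gene lies on the plus strand of chromosome 9 at positions 40800984 to 40810087 (GRCm38), and its coding transcript has 9 exons. It had 7121.28 and 6927.24 counts, or 959 and 898 TPM, with a mean of 928 ± 43.2. This was rank 98 of the protein-coding genes, above 99.6% of them. Hspa8 took up 0.142% of all counts in replicate 1 (Clopper-Pearson 95% interval 0.139% to 0.145%) and 0.131% in replicate 2 (0.128% to 0.134%), and the intervals do not overlap. Such intervals cover counting error only, since PCR copies are not independent molecules.

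The level of Hspa8 depends on how reads are divided between the gene and its processed pseudogenes, intron-free copies of its mRNA elsewhere in the genome. Of the 50-base windows of its coding transcript, 74.8% also occur, on either strand, in transcripts of another gene, and of the 100-base windows 63.4%. One copy, Gm15459 on the minus strand of chromosome 5 at positions 5781615 to 5783555, had 1870.9 and 2004.23 counts, or 558 and 575 TPM (567 ± 12.3). It is annotated as a processed pseudogene, and its counts were 20.8% and 22.4% of those of the pair. Over the 1938 coding bases of Hspa8, 5 differ between the gene and Gm15459, an identity of 99.7%, and the longest identical run is 672 bases. A stretch of 60 coding bases, positions 55 to 114 from the start codon, is shown to make this likeness visible, with the base of Gm15459 that differs from Hspa8 in capitals.
Hspa8: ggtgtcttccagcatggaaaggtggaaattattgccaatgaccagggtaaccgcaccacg
Gm15459: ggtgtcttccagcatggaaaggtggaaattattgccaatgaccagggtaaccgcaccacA
Gm15459 holds 70.0% of the 50-base windows of Hspa8. The 9 other processed pseudogenes that hold at least 2% of them had at most 4.90 counts each in replicate 1 and 4 in replicate 2. A further annotated RNA, the lincRNA Gm26825, lies on the opposite strand over Gm15459 and holds 69.0% of the 50-base windows of Hspa8. It was not among the genes counted, so it has no counts here. How many of the Gm15459 reads came from Hspa8 was not tested. With the counts of Hspa8 and its close copies added together, Hspa8 stood at 1185 TPM and made up 60.3% of the family sum.

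**Figure D2:**
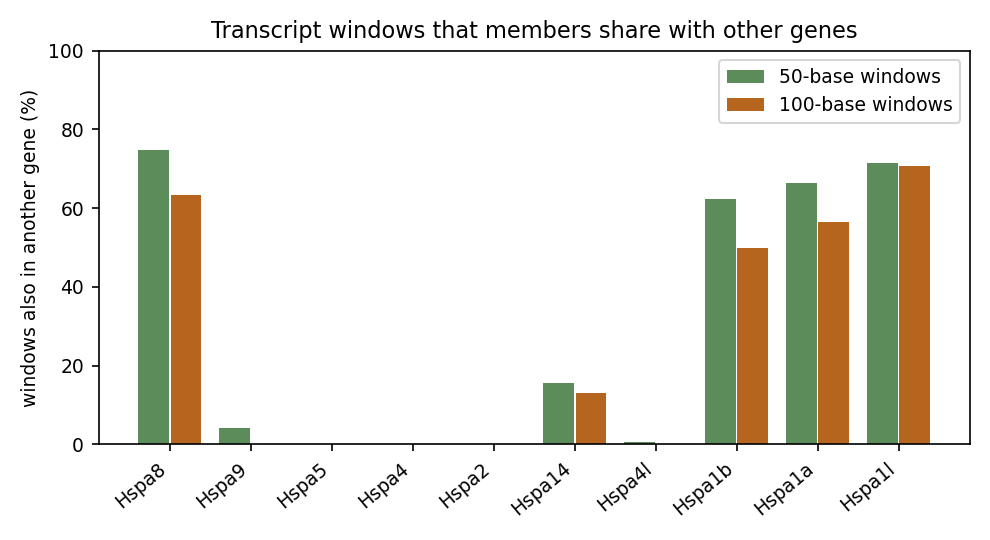
Share of all 50-base (green) and 100-base (brown) windows of each member's longest coding transcript that also occur in transcripts of another gene on either strand, in percent. Hspa8 and the chromosome 17 genes Hspa1a, Hspa1b and Hspa1l share between 62.3% and 74.8% of their 50-base windows, and Hspa5, Hspa4 and Hspa2 share 0%.

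Of the other cytosolic members, Hspa2 was expressed well below Hspa8, and the rest held few reads. Hspa2, on the plus strand of chromosome 12 at positions 76404176 to 76406938, is the testis-enriched HSP70 that mouse spermatocytes need to complete meiosis. It had 202 and 191 counts, 44.2 and 40.3 TPM (42.2 ± 2.81), at rank 3935 and above 81.9% of protein-coding genes, with a difference to Hspa8 of -4.43 ± 0.0268 on the log2(TPM + 1) scale. Its coding sequence is 75.1% identical to that of Hspa8, yet 0% of its 50-base windows occur in another gene. Hspa1l, a second testis-enriched member on the plus strand of chromosome 17 at positions 34972703 to 34979285, had 1.05 and 2.33 counts, both under the floor of 3. Its 0.246 and 0.525 TPM carry a further limit, since the antisense gene Gm10501 (1 and 2 counts) holds the 71.4% of its windows that are shared, and the strand setting of the counting is not given in the sources used here.

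Hspa1a and Hspa1b, the stress-inducible HSP70 genes that Hsf1 turns on after heat, held few reads. Both are genes of a single exon on the minus strand of chromosome 17, Hspa1b at positions 34956436 to 34959238 and Hspa1a at 34969190 to 34972156, with 9951 bases between them. Hspa1a and Hspa1l point away from each other, with 546 bases between their starts. Hspa1b had 21.79 and 0 counts (4.50 and 0 TPM), and Hspa1a had 3.16 and 5.67 counts (0.617 and 1.06 TPM). The order of the pair is opposite in the 2 libraries. Their coding sequences differ at 8 of 1923 aligned bases (99.6% identity), so the split between them is uncertain and the sum is the safer value. That sum was 24.95 and 5.67 counts, or 5.12 and 1.06 TPM, and it made up 0.293% and 0.0638% of the family. Counted as 1 gene the pair passed the threshold of 1 TPM in both libraries, which brought the family to 8 expressed. Hspa8 was 187 times the pair in replicate 1 (95% interval 127 to 289 from the Poisson error of the pair) and 843 times in replicate 2 (366 to 2170).

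In places few bases separate the cytosolic genes. Their most alike 60-base coding stretch, found by alignment and shown here because it holds so few bases that separate the genes, is printed with bases that differ from Hspa8 in capitals.
Hspa8: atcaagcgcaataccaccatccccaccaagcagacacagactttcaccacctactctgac
Hspa1a: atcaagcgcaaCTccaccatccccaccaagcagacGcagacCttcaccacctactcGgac
Hspa1b: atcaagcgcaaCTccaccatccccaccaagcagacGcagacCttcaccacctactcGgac
Hspa1l: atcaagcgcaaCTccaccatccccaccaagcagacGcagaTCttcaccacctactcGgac
Hspa2: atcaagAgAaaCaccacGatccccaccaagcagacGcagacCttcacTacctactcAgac
In this stretch Hspa1a and Hspa1b are the same and differ from Hspa8 at 5 bases, Hspa1l at 6 and Hspa2 at 8. The stretch lies at coding bases 1240 to 1299 of Hspa8. Over whole coding sequences, identity to Hspa8 was 73.9% for Hspa1a, 74.1% for Hspa1b and 73.4% for Hspa1l, and identity between Hspa1a and Hspa1l was 82.8%.

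Promoter letters were searched for units that heat shock factors are known to bind. RefSeq promoters (GRCm38.p6, 250 bases before to 50 after the start) matched 8 of the 10 members by symbol, all except Hspa8 and Hspa9. Heat shock factors bind repeats of the unit GAA and its reverse TTC, set in turn with 2 bases between. The paired unit GAANNTTC, searched on both strands, was present in 7.86% of all 32851 promoters and in 2 of 8 members, Hspa1a and Hspa1b, at bases -104 to -97 from the start in both. The opposite order TTCNNGAA was in 8.52% of promoters and in 0 of 8 members, and 3 units in a row were in 0.603% of promoters and in 0 of 8 members. The letters TATAAA, 1 form of the TATA box, were in 13.6% of promoters and 0 of 8 members, and other forms were not searched. The CCAAT box was in 37.4% of promoters and 6 of 8 members. The 150 bases before each start are shown because the pair differ at only 1 of them, on the minus strand at chr17:34959239-34959388 for Hspa1b and chr17:34972157-34972306 for Hspa1a, with the paired unit and the CCAAT box (ATTGG on this strand) in capitals.
Hspa1b: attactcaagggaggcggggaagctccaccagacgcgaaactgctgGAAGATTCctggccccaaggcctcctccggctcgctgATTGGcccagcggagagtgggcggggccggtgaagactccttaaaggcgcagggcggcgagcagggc
Hspa1a: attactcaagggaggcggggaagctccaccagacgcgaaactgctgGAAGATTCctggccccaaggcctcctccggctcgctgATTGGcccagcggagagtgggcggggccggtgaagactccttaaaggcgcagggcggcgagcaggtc
A match describes these letters only and is not a measured binding site.

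**Figure D3:**
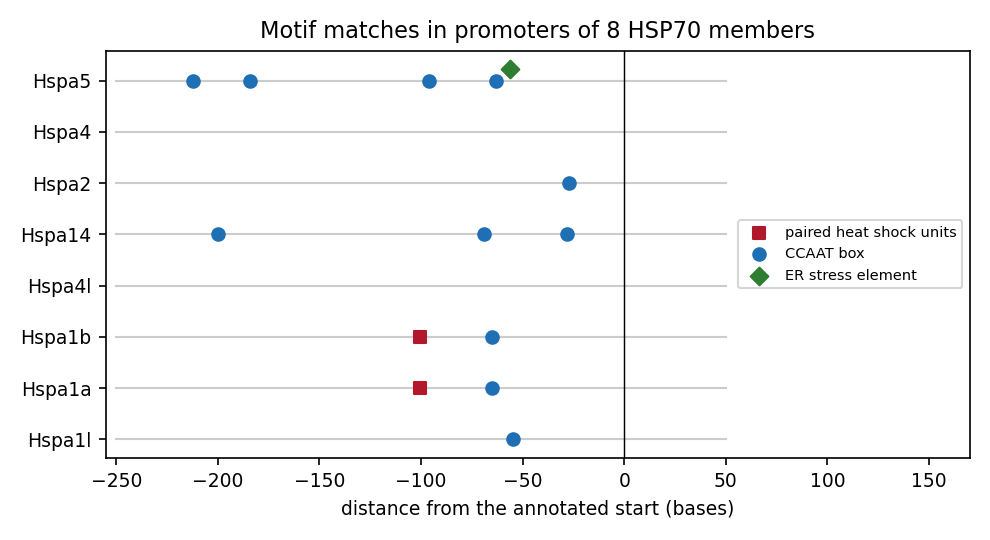
Centres of motif matches in the RefSeq promoters of 8 members, plotted by distance in bases from the annotated start (vertical line), with 1 row per gene and the searched window as a grey line from 250 bases before to 50 after it. Red squares mark GAANNTTC, which appears for Hspa1b and Hspa1a only, blue circles mark the CCAAT box on either strand, and the green diamond marks the ER stress element of Hspa5.

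The organelle members were both well expressed. Hspa5 (BiP), the HSP70 of the ER lumen that also holds the stress sensors of the unfolded protein response inactive, lies on the plus strand of chromosome 2 at positions 34771970 to 34777547. It had 1592 and 1570 counts, 218 and 207 TPM (212 ± 7.83), at rank 631 of the protein-coding genes, and shares 0% of its 50-base windows. Of the 8 promoters searched, 1 held the ER stress element, CCAAT followed by CCACG with 9 bases between, which ATF6 and its partners bind, and this was the promoter of Hspa5. The element occurs in 0.119% of all promoters. It spans bases -65 to -47 from the RefSeq start and is shown with 5 bases on either side, plus strand, chr2:34772020-34772048, with its 2 boxes in capitals.
Hspa5: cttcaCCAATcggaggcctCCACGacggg
The same promoter held 4 CCAAT boxes, 1 of which begins the element.

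Hspa9 (mortalin), the mitochondrial member, pulls imported proteins into the matrix and helps build iron-sulfur clusters. The gene lies on the minus strand of chromosome 18 at positions 34937414 to 34954357. It had 2053 and 2125.9 counts, 276 and 275 TPM (275 ± 0.643), at rank 434. Hspa9 was 1.27 and 1.33 times Hspa5. Its pseudogene Hspa9-ps1 had 3 and 5.05 counts and holds the 4.10% of Hspa9 windows that are shared.

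Hspa4 and Hspa4l belong to the HSP110 branch, larger relatives that act mainly as nucleotide exchange factors for the cytosolic HSP70s. Hspa4, on the minus strand of chromosome 11 at positions 53259814 to 53300457, had 1824 and 1976 counts, 191 and 199 TPM (195 ± 5.77), at rank 699. Hspa4l, on the plus strand of chromosome 3 at positions 40744495 to 40796103 and enriched in mouse testis, had 510 and 568 counts, 25.0 and 26.8 TPM (25.9 ± 1.27). The pair is 66.5% identical in coding sequence, and of their 50-base windows 0% and 0.626% are shared with other genes. Both had the higher TPM in replicate 2, while Hspa8, Hspa9, Hspa5, Hspa2 and Hspa14 had it in replicate 1.

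Hspa14, the ribosome-associated HSP70 that in human cells works with the J-domain protein Dnajc2 on new chains, lies on the minus strand of chromosome 2 at positions 3488850 to 3512814. It had 202.56 and 168.46 counts, 28.9 and 23.1 TPM (26.0 ± 4.08). The gene overlaps Gm45902 on the same strand, which had 16.44 and 18.54 counts and holds the 15.6% of Hspa14 windows that are shared. Its partner Dnajc2 was higher, at 129 ± 9.22 TPM.

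In order of level the members ran Hspa8, Hspa9, Hspa5, Hspa4, Hspa2, Hspa14, Hspa4l, Hspa1b, Hspa1a and Hspa1l. Neighbours whose library values overlap are Hspa14 and Hspa4l, and Hspa1b and Hspa1a. Hspa5 was above Hspa4 in both libraries but only by 1.14 and 1.04 times, and without length scaling the order turned, with Hspa4 at 369 and Hspa5 at 307 CPM. The exact 95% intervals of Hspa1a (0.123 to 1.75 CPM in replicate 1 and 0.417 to 2.48 in replicate 2) overlap those of Hspa1l (0.00504 to 1.11 and 0.0459 to 1.37), so no order of this pair was detectable at this depth. Hspa14 stood above Hspa2 when the longest transcript (45.9 against 34.5 TPM) or the longest coding transcript (42.0 against 31.6 TPM) set the length, and without length scaling Hspa4l (105 CPM) stood above Hspa2 (38.2) and Hspa14 (36.1). With the length of coding transcripts, Hspa8 reached 1190 TPM and 62.4% of the family sum.

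Nucleotide exchange factors were present in every compartment. For this and the lists that follow, the background was 53.5% of all protein-coding genes expressed and a median of 2.57 TPM over all. In the cytosol 6 of 6 listed factors were expressed at a median of 48.2 TPM, and in the ER and mitochondria 3 of 3 at 96.2 TPM. Bag1, which links HSP70 to the proteasome, led with 349 and 348 TPM (348 ± 0.776), followed by Hspbp1 at 63.5 ± 8.93. Bag3, which works with HSP70 in selective autophagy and is itself induced by heat, was low at 5.32 ± 0.144 (24 and 24 counts), and Bag2 lower at 3.53 ± 0.0953. Of 5 relatives outside the 10 members, 4 were expressed, at a median of 18.8 TPM. Hsph1 (HSP105) stood at 98.2 and 103 TPM (100 ± 3.15), and Hyou1, the large exchange factor of the ER, at 82.4 and 79.2 TPM (80.8 ± 2.29). Hspa13 stood at 18.8 ± 1.90, Hspa12a at 6.05 ± 0.186, and Hspa12b was listed at 0 in both libraries. The ER factor Sil1 stood at 117 ± 3.14, and the mitochondrial factors Grpel1 and Grpel2 at 96.2 ± 1.57 and 77.5 ± 3.93.

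J-domain partners were expressed for 8 of 9 cytosolic, 6 of 6 ER, 4 of 4 mitochondrial and 2 of 3 ribosomal and clathrin genes. The lists' medians were 47.5, 68.5, 137 and 47.9 TPM in that order. The highest of the cytosolic set were Dnaja2 at 373 and 321 TPM (347 ± 37.0) and Dnajb6, which keeps aggregation-prone proteins soluble, at 231 ± 14.3. The lowest were Dnajb4 at 3.11 ± 0.359 and Dnajb5 at 0.717 ± 0.0483. Dnajb1, the heat-inducible J-domain protein, stood at 47.5 ± 3.10. In the ER, Dnajc10, a disulfide reductase, stood at 125 ± 5.13 and Dnajb11 at 109 ± 1.20, above Sec63 of the translocon at 23.3 ± 0.422 and Dnajc1 at 10.9 ± 0.674. Among the mitochondrial set, Hscb of iron-sulfur cluster assembly (143 ± 25.4), Dnajc15 (140 ± 1.83) and Dnaja3 (135 ± 6.42) were close together and above Dnajc19 (34.7 ± 1.20). Of the partners that help Hspa8 strip clathrin, Gak, found in most cells, stood at 47.9 ± 0.923, and Dnajc6, the neuronal form, at 0.386 ± 0.146.

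Partners that take over or tag HSP70 clients were all expressed, 7 of 7 at a median of 148 TPM. Stip1 (Hop), which hands clients to HSP90, led with 296 and 274 TPM (285 ± 15.4), and Sgta, which guides membrane proteins, followed at 181 ± 3.77. Ttc4 at 61.9 ± 1.90 and Tomm70a, a mitochondrial import receptor for chaperone-bound proteins, at 47.6 ± 3.01 were the lowest.

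**Figure D4:**
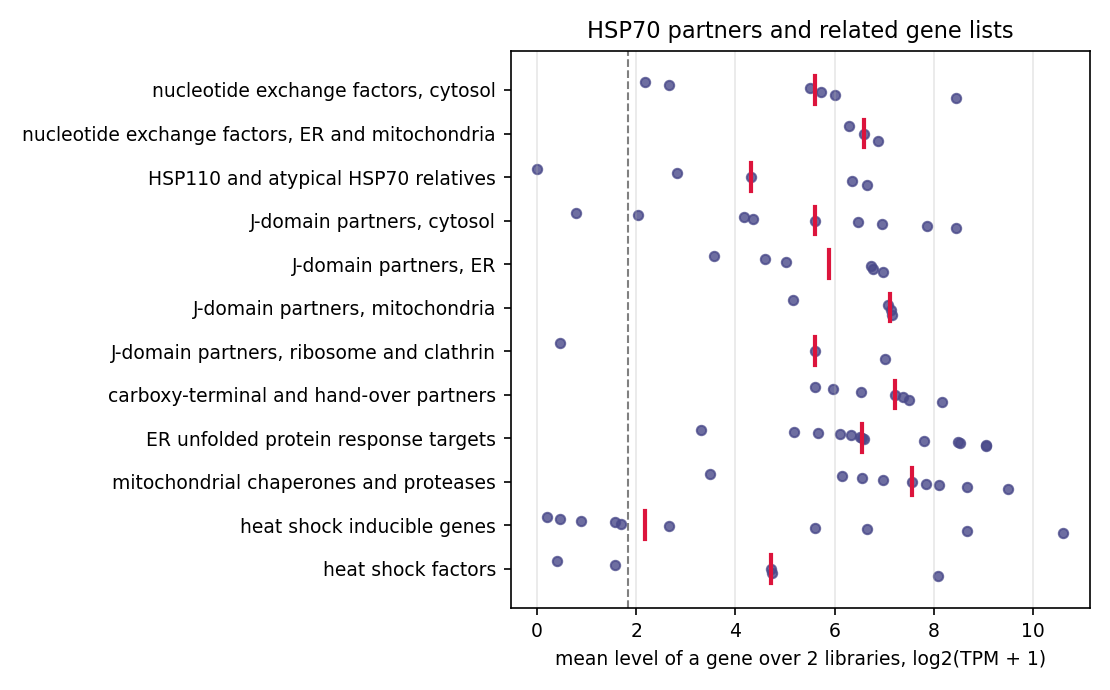
Mean level over both libraries of each gene in 12 lists of HSP70 partners and related genes, on a log2(TPM + 1) axis. Each point is a gene, the red bar is the list's median, and the dashed line is the median of all protein-coding genes, 2.57 TPM. The heat shock inducible list spreads from genes under 1 TPM to Hsp90aa1 at 1566 TPM, with a median of 3.79 TPM.

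With merged exon lengths and no copies added, the sums of HSP70 mRNA and of exchange factor mRNA were of like size in the cytosol and the ER. In the cytosol 5 HSP70s summed to 1008 and 939 TPM and 9 exchange factors, Hsph1, Hspa4 and Hspa4l included, to 843 and 834 TPM, a ratio of 1.16 ± 0.0494. In the ER, Hspa5 was 1.07 ± 0.0441 times the sum of Sil1 and Hyou1. In mitochondria, Hspa9 was 1.58 ± 0.0252 times the sum of Grpel1 and Grpel2, and the ratio was higher than the other two in both libraries. Per J-domain partner mRNA the ratio was 1.11 ± 0.0297 in the cytosol, 0.524 ± 0.0112 in the ER and 0.609 ± 0.0279 in mitochondria. The cytosolic ratios rest on Hspa8 at 928 TPM. Hspa8 stood at 1185 TPM with close copies added and at 1190 TPM with coding transcript lengths. The ratios, and their order between compartments, were not recomputed for these. All these sums were formed after the members' values had been seen, and mRNA ratios say nothing of protein amounts.

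Of 10 heat shock inducible genes, which include Hspa1a and Hspa1b, 5 were expressed, at a median of 3.79 TPM. This is near the background of all protein-coding genes, of which 53.5% were expressed, with a median of 2.57 TPM over all. Hsp90aa1 stood at 1566 ± 47.5 TPM and Hspe1, the mitochondrial co-chaperonin, at 407 ± 31.2, while the small heat shock genes Hspb1, Cryab and Hspb8 had 7, 2 and 1 counts in replicate 1 and 0 in replicate 2. Of 5 genes in the list of heat shock factors 4 were expressed, at a median of 25.5 TPM. Hsf1 stood at 25.5 ± 1.14, Hsf2 at 25.9 ± 0.137, and the inhibitor Hsbp1 at 270 ± 9.12. Hsf5, known from the mouse testis, stood at 1.98 ± 0.0431 and Hsf4 at 0.318 ± 0.450.

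The ER list of unfolded protein response targets was expressed in full, 13 of 13 at a median of 93.2 TPM. The lectin chaperone Calr stood at 532 ± 54.3 and Hsp90b1 (Grp94), the HSP90 of the ER, at 529 ± 7.93, both above Hspa5. Sdf2l1 at 35.2 ± 3.49 and Herpud1, of ER-associated degradation, at 8.87 ± 0.965 were the lowest. All 9 mitochondrial chaperones and proteases, Hspa9 among them, were expressed at a median of 189 TPM, led by the chaperonin Hspd1 at 724 ± 4.26 and Hspe1, with Timm44, which anchors Hspa9 at the import channel, at 70.2 ± 6.17 and the protease Htra2 at 10.2 ± 1.09. These levels have no untreated counterpart here.

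The 7 expressed members differed little between the 2 libraries, and the inducible pair differed several-fold on few reads. By a two-sided exact binomial test of rounded counts against scaled library sizes, with Benjamini-Hochberg adjustment over 12182 genes, 0 of the 7 members tested passed both an adjusted p of 0.05 and a 2-fold minimum, against 0.673% of all genes tested. At an unadjusted p under 0.05, 2 of the 7 passed, Hspa8 and Hspa14, against 20.7% of genes, a share near the background. An exact test under a negative binomial model, with the variation between libraries preset, called 0 of the 7 and 0.107% of genes. Without the fold minimum 1 member, Hspa8, was called, against 7.84% of genes. Hspa8 was lower in replicate 2 by a log2 ratio of -0.11 (counting SE 0.02, exact adjusted p = 0.000577). The binomial test sets this ratio against counting noise alone, while the libraries varied by more than that, with a chi-square per degree of freedom of 3.55 over the genes tested. Under the negative binomial model Hspa8 had an exact unadjusted p of 0.602 (adjusted p = 1), so its call does not hold once variation beyond counting is allowed. Hspa14 had a log2 ratio of -0.34 (SE 0.15, exact adjusted p = 0.162). The other 5 members tested lay between -0.15 (Hspa2) and 0.09 (Hspa4l), and the median of the 7 was -0.09 against 0.00 over all genes.

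The 3 members left out of this test were the low chromosome 17 genes. Without the filter on low counts Hspa1b, with rounded counts of 22 and 0, was called lower in replicate 2 (exact adjusted p = 2.21e-05), against 0.991% of the 21288 genes then tested, and Hspa1a had 3 and 6 rounded counts (exact adjusted p = 0.837). The sum of these near-identical copies was also lower in replicate 2, at 5.67 against 24.95 counts. How reads were split between them was not tested. The counting intervals of the ratio of Hspa8 to the pair, given above, do not overlap between the libraries, but they take in counting error only. The pair was not tested under the negative binomial model. Some other low genes were lower in replicate 2 as well, with 7 and 0 counts for Hspb1 and 2 and 0 for Cryab. Others were higher, such as Hsf4 with 0 and 2 counts and Hspa1l with 1.05 and 2.33. In sum the 8 granulosa markers had 49 and 21 counts and the endothelial markers 49 and 37. The stroma markers did not fall, with 57 and 60 counts, nor did the immune and erythroid markers, with 6 and 6. Of the genes called without the filter, 107 were higher and 104 lower in replicate 2. The part of low genes in the result was not tested. These tests compare 2 libraries of the same treatment, not conditions, and their p-values take in no variation between cultures. The labels do not say whether the libraries came from separate cultures.

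**Figure D5:**
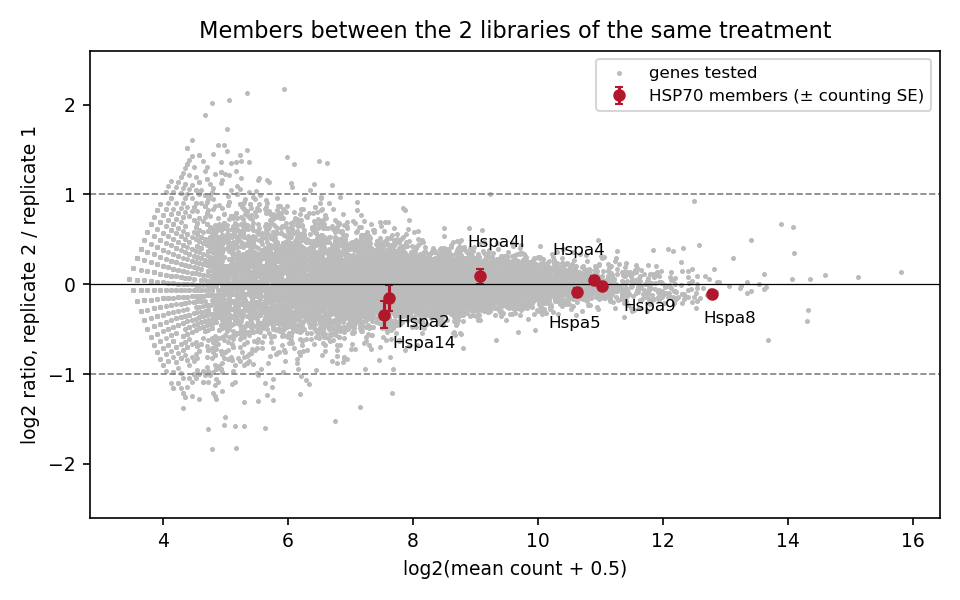
Log2 ratio of replicate 2 to replicate 1 for each of the 12182 genes tested (grey) against log2 of the mean count plus 0.5, with the 7 HSP70 members tested in red and their counting SE as bars. Dashed lines mark 2-fold. All 7 members lie inside them, Hspa14 lowest at -0.34.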

How the data were processed

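The submitters' processing notes name fastp 0.20.0, STAR 2.7.7a, RSEM and GRCm38. The authors deposited expected counts of each gene, which are scaled neither to library size nor to gene length. The annotation release, strand setting, read length and RSEM version were not given in the sources used here. Besides these 2 libraries, the table's 21 other columns of values match no sample and stayed unused.

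Of 53832 Ensembl IDs, 53579 were found in GENCODE M21, and TPM was computed from expected counts and merged exon length. Counts were rounded for the test between libraries, with genes kept by the edgeR 4.0.16 function filterByExpr (R 4.3.3) and TMM scaling. The test was checked on simulated data that held counting noise only. That check cannot show how the test performs where libraries vary by more than that, as these do. The common biological coefficient of variation was 7.31%. Coding sequences of GENCODE transcripts were aligned with MAFFT 7.526, and windows of 50 and 100 bases were searched in all transcripts. Promoter sequences are those of RefSeq. A protein table was not used here.

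With 1 group of 2 libraries, edgeR's quasi-likelihood test could not be run. Alternatives were CPM, other lengths, totals without mitochondrially encoded genes, TMM or DESeq2 1.42.0 size factors, a pseudocount of 0.1, a threshold of 5 TPM, no filter, no fold minimum, a negative binomial test with a preset coefficient of variation of 0.1, the inducible pair as 1 gene, and each library left out. Lengths of coding transcripts and counts summed with close copies (genes holding at least 25% of a member's windows of 50 bases) were added after seeing the data. For Hspa1l the gene so added was the antisense gene Gm10501. The members and lists were chosen with earlier results of these data known. Named genes are all members, the 2 highest and 2 lowest genes of each list, 11 partners fixed by name, and other genes whose symbol begins with Hspa. Hspb1 was named outside these rules. Gm15459, Gm26825, Gm10501 and Gm45902, which share windows with members, were named after the results were seen.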

Additional observations from a re-analysis of the deposited data

How the results depend on the processing

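The number of expressed members was 7 under CPM, other lengths, other scalings, totals without mitochondrially encoded genes, a threshold of 5 TPM and counts summed with close copies. It was 8 without replicate 1, where Hspa1a passed at 1.06 TPM, 8 without replicate 2, where Hspa1b passed at 4.50 TPM, and 8 with the inducible pair as 1 gene. The summed level of 1709 TPM ranged from 1670 to 1747 with 1 library left out. It was 2631 in CPM, 1770 with the longest transcript, 1900 with totals without mitochondrially encoded genes, 1908 with the longest coding transcript and 1965 with close copies added. The share of Hspa8, 54.3%, ranged from 53.7% to 54.9% with 1 library left out, and was 51.9% in CPM, 55.7% with the longest transcript, 62.4% with the longest coding transcript and 60.3% with copies added. The count of members called between libraries was 0 with DESeq2 size factors and with the negative binomial test, 1 without the filter on low counts (Hspa1b) and 1 without the fold minimum (Hspa8). Among single members' levels, differences to Hspa8 and library ratios, 106 values stayed within their spread or on their side of the threshold. A further 57 moved by more than the spread of 2 libraries. The ratio of Hspa8 lost its call under the negative binomial test. None of these values changed sign, but levels cannot be negative. Among the library ratios only that of Hspa8 could have counted as reversed. The order of some members did turn between settings, as given above. The 106 are not a measure of stability. With 2 libraries, a value with 1 library left out always lies within the SD, so it could not count as moved. Hspa1b, at a mean of 2.25 TPM, counted as unmoved at 0 TPM without replicate 1 and at 4.50 TPM without replicate 2. The library ratios rest on the same 2 counts per gene under every setting. Lengths and copies act by construction on the counts per base; other causes were not tested. No paired analysis was possible because there is 1 group. Depth limits Hspa1a and Hspa1l, near or under the floor of 3 counts in both libraries, and Hspa1b, at 21.79 counts in replicate 1 and listed at 0 in replicate 2.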
